A study of Homo sapiens with 6 samples.

Results

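Metallothioneins are small, cysteine-rich proteins that bind zinc and copper ions and are made by a run of neighbouring genes on the long arm of chromosome 16. The 8 genes described here are MT2A, MT1E, MT1M, MT1A, MT1F, MT1G, MT1H and MT1X, listed by name and given in the order in which they lie, out of 24135 genes examined. For each gene, the histone marks were read in the kilobase to either side of every start site that GENCODE annotates in hg19, together called its window. The marks were H3K27ac, an acetylation found at active promoters and enhancers, and H3K4me3, a trimethylation found at the promoters of active genes.

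The cells were HSC3, an established line of oral squamous cell carcinoma, and were studied with the aim of finding targets of the lncRNA DLEU1. One group, siCONT, had received a control siRNA and the other, siDLEU1, an siRNA against DLEU1, and both were taken 72 h later. ChIP-seq of each mark was done on 1 library per siRNA, and each of the 4 libraries has a list of peak regions. The study names siDLEU1-2 as the siRNA used, so a single siRNA stands for the depletion of DLEU1. With 1 library per siRNA and mark there are no replicates, so differences were not tested.

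The metallothionein genes are known for their induction by zinc and cadmium. Zinc activates the transcription factor MTF1, which then binds short metal response elements in the promoters of these genes. The same genes also respond to glucocorticoids, oxidative stress and inflammatory cytokines, and MT2A and MT1X are widely expressed in epithelia. The members encode very similar proteins and are thought to have arisen by repeated duplication, so their sequences are partly alike.

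The promoter sequences show this family resemblance. The 100 bases before the canonical start are printed 5′ to 3′ from GRCh37 for 3 genes. MT2A and MT1X are the first and the last of the 8 members and carried both marks in siCONT cells. MT1H carried neither and has the most metal response elements. Capitals mark the metal response element core on either strand (TGCACNC or TGCGCNC, read on the other strand as GNGTGCA or GNGCGCA) and the TATA box (TATAAA). The last base of each run lies next to the start.
MT2A, chr16:56642396-56642495, plus strand: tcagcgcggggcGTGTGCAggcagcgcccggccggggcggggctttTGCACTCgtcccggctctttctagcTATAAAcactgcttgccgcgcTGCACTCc
MT1X, chr16:56716282-56716381, plus strand: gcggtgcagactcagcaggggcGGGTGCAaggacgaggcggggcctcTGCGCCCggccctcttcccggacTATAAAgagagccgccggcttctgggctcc
MT1H, chr16:56703626-56703725, plus strand: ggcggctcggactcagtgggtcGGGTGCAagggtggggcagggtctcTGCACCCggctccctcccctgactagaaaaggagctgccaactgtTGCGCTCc

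Over the 250 bases before the canonical start, searched on both strands, the metal response element core was found in 8 of the 8 genes and in 29.2% of the promoters of all 24135 genes. Of the 8, 7 held at least 3 matches, against 2.06% of all promoters. MT1H held the most, with 8 matches, followed by MT2A with 7, MT1F with 6, MT1G with 5, MT1X with 4, and MT1E and MT1M with 3 each. MT1A had 1 match. The number of matches did not set the marked genes apart, since MT1H and MT1G, which had no region in any list, held 8 and 5. A TATA box was found in 4 of the 8 (MT2A, MT1E, MT1G and MT1X), starting 29 bases before the start in MT2A and 30 in the others, and in 9.87% of all promoters.

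Other motifs were searched for in the same 250 bases. The core of the interferon-stimulated response element was found in 0 of the 8 and in 2.92% of all promoters. The GAS core bound by STAT factors (TTCNNNGAA) was found in MT2A alone of the 8, from 194 bases before the start, and in 5.97% of all promoters. The antioxidant response core (TGACNNNGC) was found in MT2A and MT1X, and in 11.3% of all promoters. These matches describe the letters only and do not show that a factor binds.

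For the series as a whole, the lists held 19705 (siCONT) and 17672 (siDLEU1) regions of H3K27ac, and 58582 and 56943 of H3K4me3. Depth is not stated in the lists but was worked back from them, and came to between 21.5 M and 29.4 M reads per library under an assumed genome of 2.7 Gb. The lists were called separately, so the strength of a region is given as its percentile by fold enrichment within its own list, where 100 is the strongest and a gene with no region is set at 0. Coverage at the summit of a region is given as a multiple of the coverage that an even spread of the same reads over the genome would give, and intervals on its ratio are exact 95% intervals that cover counting error only. Among all genes that carried a mark in both groups, the median ratio of summit coverage, siDLEU1 over siCONT, was 0.615 for H3K27ac and 1.25 for H3K4me3. In the marker check, the 6 epithelial and squamous genes examined (KRT5, KRT14, TP63, EPCAM, CDH1 and SFN) had regions in each of the 4 lists. Of the markers of other cell types, PTPRC, CD3E and MYOD1 had none, COL1A1 had regions in each list, and PECAM1 was not in the gene set.

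In siCONT cells, 5 of the 8 metallothionein genes carried H3K27ac and the same 5 carried H3K4me3, namely MT2A, MT1E, MT1M, MT1F and MT1X. In siDLEU1 cells, H3K27ac was left at 3 of them (MT2A, MT1M and MT1X), and H3K4me3 at 4 (all but MT1F). Over all genes, 56.3% (siCONT) and 53.3% (siDLEU1) had an H3K27ac region in their window, and 56.6% and 56.4% an H3K4me3 region. From the start of MT2A to the end of MT1X, a span of 75.6 kb, H3K27ac regions covered 4322 bp in 7 regions in siCONT cells and 1337 bp in 4 regions in siDLEU1 cells. H3K4me3 covered 8863 bp in 10 regions and 4429 bp in 9, the region upstream of the MT2A start not included. Each siDLEU1 region in the span, of either mark, overlapped a siCONT region. The share of all siDLEU1 regions with such an overlap was not counted, so this has no comparison. In siCONT cells, 3 of the 7 H3K27ac and 4 of the 10 H3K4me3 regions had no counterpart. Of these H3K4me3 regions, 1 lay in the window of a member. Of all siCONT regions, 77.8% (H3K27ac) and 76.4% (H3K4me3) were overlapped by a siDLEU1 region.

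**Figure D1:**
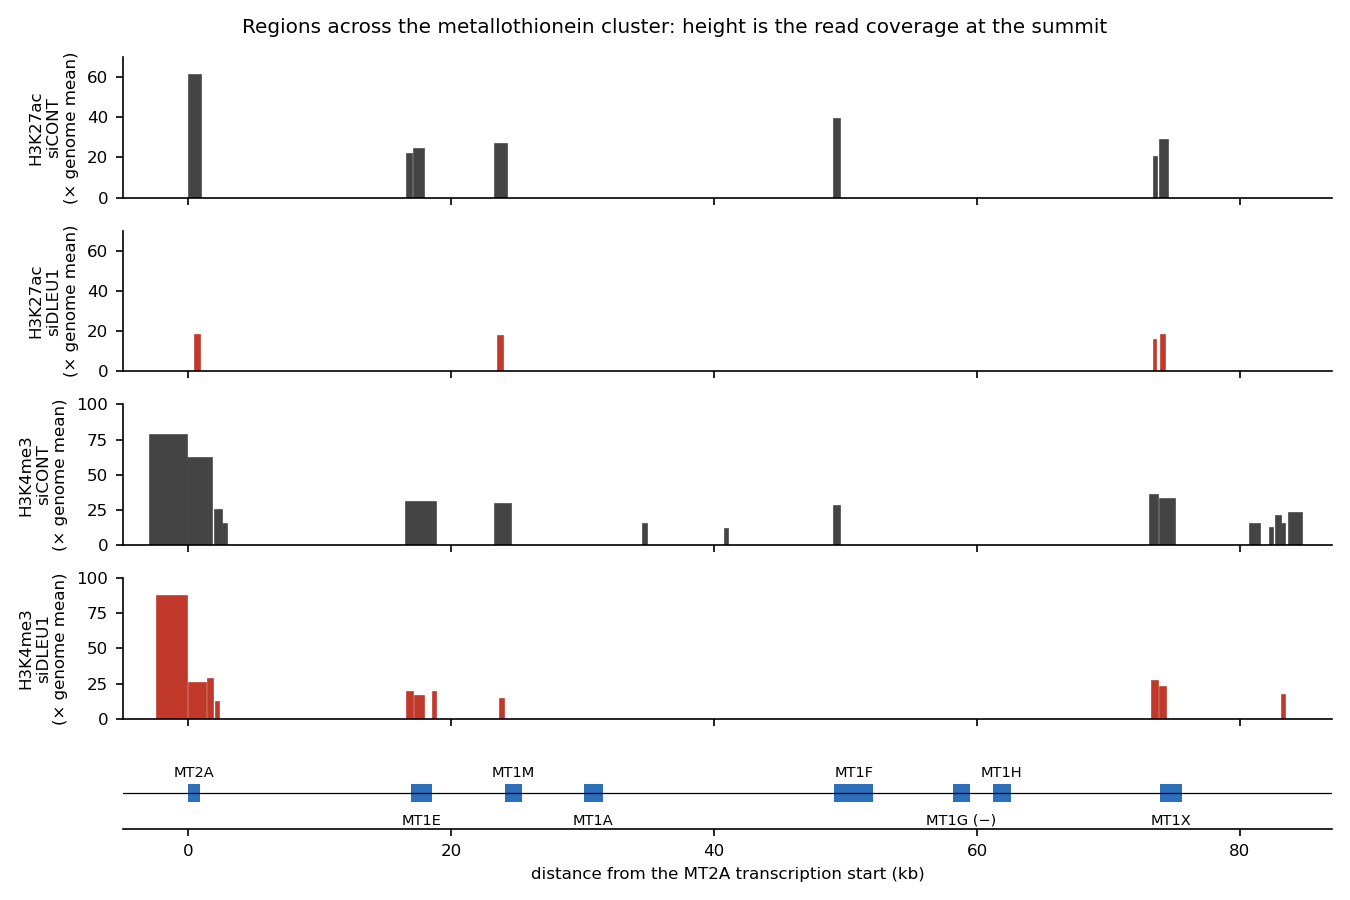
Regions of H3K27ac and H3K4me3 across the metallothionein cluster in siCONT (grey) and siDLEU1 (red) cells, 1 library each. The x axis is the distance from the MT2A start in kb, the width of a box is the extent of the region (edges drawn with a thin line), its height is the summit coverage as a multiple of the genome mean, and the blue boxes are the genes, with (−) for the minus strand. No box stands at MT1A, MT1G or MT1H, and MT1F is marked in siCONT cells only.

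MT2A (ENSG00000125148, chromosome 16, 56642496 to 56643409, plus strand) is the best-known human metallothionein and the first of the 8 members along the chromosome. In siCONT cells, its H3K27ac region ran from 56642501 to 56643481, over exons 1 to 3 and both introns. After siDLEU1 it spanned only 56643009 to 56643389, within intron 2 and exon 3, so the first exon was no longer covered. Summit coverage was 61.2 times the genome mean in siCONT cells (91 fragments) and 18.3 times in siDLEU1 cells (35 fragments), a ratio of 0.299 (0.196 to 0.445). This was the lowest ratio among the members, and its interval lay below the all-gene median of 0.615. In percentile the difference was smaller, from 34.6 to 21.1, and the local background at the summit was 4.02 times the genome level in siCONT cells and at that level in siDLEU1 cells. Fold enrichment divides by that background, and its part in the percentile was not tested. The siCONT background stands for 2 control fragments, so it rests on few reads and carries no interval.

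MT2A also held the strongest H3K4me3 of the cluster, in a pair of regions on either side of its start. The upstream region ran from 56639531 to 56642357 in siCONT cells and from 56640089 to 56642365 in siDLEU1 cells. It stood at percentiles 97.9 and 94.5, with a summit coverage of 78.3 and 87.2 times the genome mean, a ratio of 1.11 (0.879 to 1.41). No H3K27ac region overlapped it in either group. The downstream region, which begins 21 bp before the start and covers the whole gene, ran from 56642475 to 56644314 in siCONT cells. In siDLEU1 cells it was split into a region from 56642535 to 56643830 and another from 56643943 to 56644385. The region over the gene stood at percentile 94.2 in siCONT and 39.1 in siDLEU1 cells, and its summit coverage was 61.7 (130 fragments) and 25.4 (39 fragments) times the genome mean, a ratio of 0.411 (0.280 to 0.592). For the region upstream of MT2A, the interval of the H3K4me3 ratio thus held both 1 and the all-gene median of 1.25. That region was shorter in siDLEU1 cells, at 2277 bp against 2827 bp. Over the transcribed part, H3K4me3 summit coverage was lower in siDLEU1 cells.

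The printed promoter of MT2A lay between these regions. Of its 100 bases, 0 were under H3K27ac in either group, and 21 (siCONT) and 0 (siDLEU1) were under H3K4me3. Further downstream, a smaller H3K4me3 region from 56644509 to 56645068 had a summit coverage of 25.2 times the genome mean in siCONT cells. The overlapping siDLEU1 region, of 196 bp, had 11.7 times, a ratio of 0.465 (0.257 to 0.807).

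**Figure D2:**
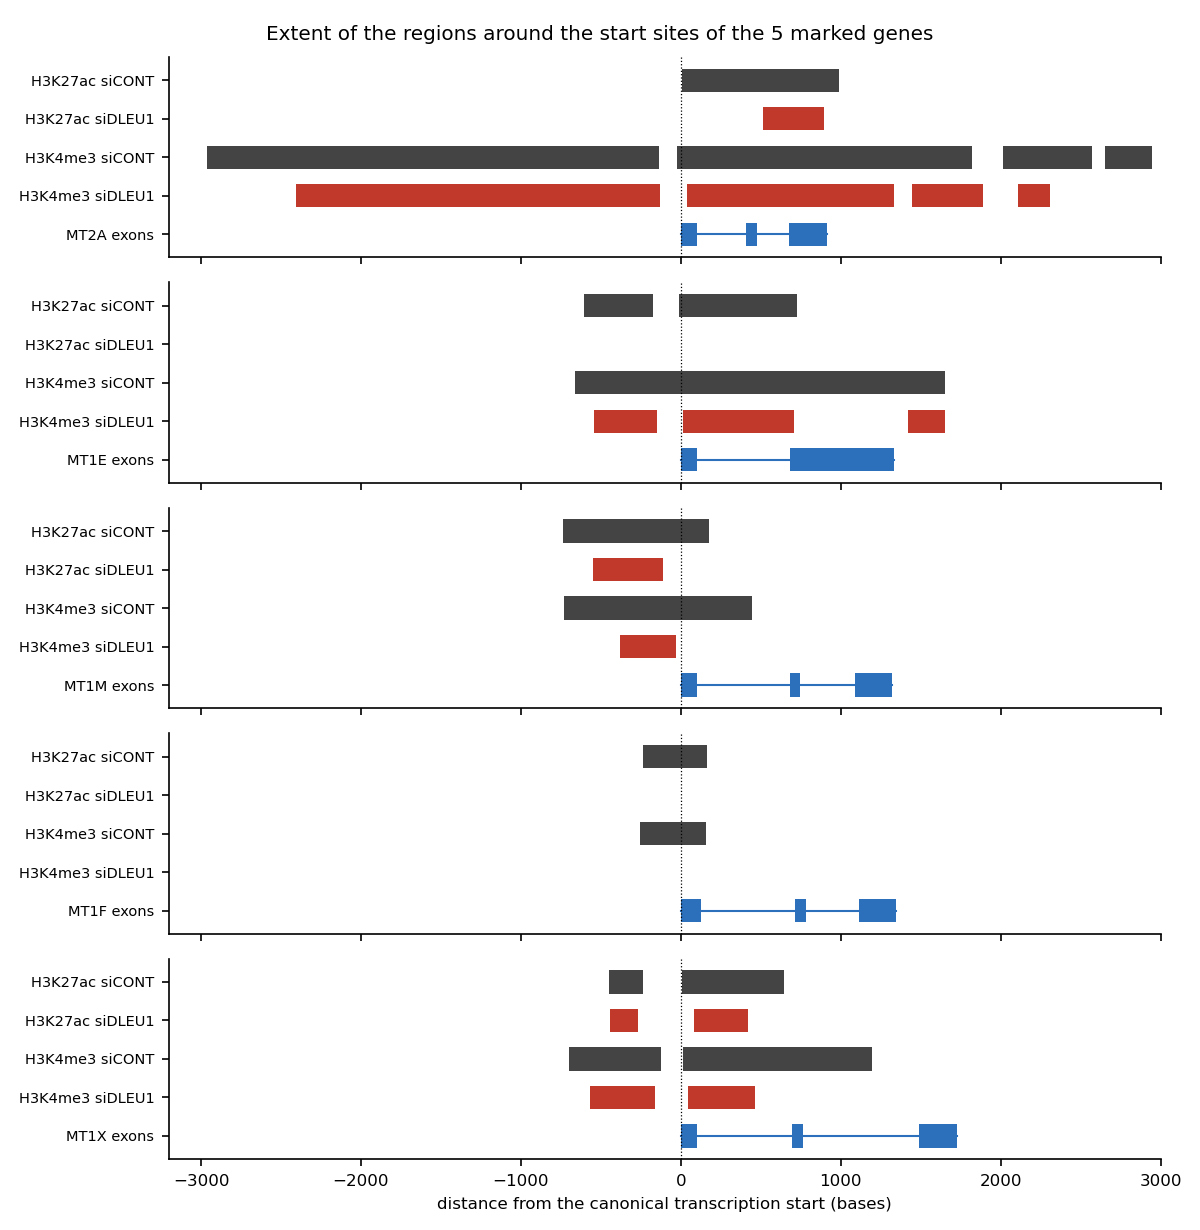
Extent of the H3K27ac and H3K4me3 regions around MT2A, MT1E, MT1M, MT1F and MT1X in siCONT (grey) and siDLEU1 (red) cells. The x axis is the distance in bases from the canonical start (dotted line) and blue boxes are the exons of the canonical transcript. Each siDLEU1 region is shorter than the siCONT region it overlaps, and the region upstream of MT2A is the longest shown.

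MT1E (ENSG00000169715, 56659387 to 56661024, plus strand) was one of the 2 genes whose H3K27ac was not called in siDLEU1 cells. In siCONT cells it had a region upstream, from 56659088 to 56659517, and another from 56659680 to 56660417 over exon 1, the intron and the first bases of exon 2. Their summit coverage was 21.5 and 24.2 times the genome mean, from 32 and 36 fragments, and the gene stood at percentile 27.5. Of the 15632 siCONT regions of H3K27ac in the genome with at least the coverage of the stronger one, 7.84% had no siDLEU1 region over them. With the weaker one as the limit it was 10.2%. Both pools take in all stronger regions, and the median of all siCONT regions of H3K27ac was 50.4 times the genome mean. These shares therefore do not give the share at the strength of MT1E itself. H3K4me3 formed a single region of 2309 bp in siCONT cells, from 56659034 to 56661342, which covered the whole canonical transcript. In siDLEU1 cells 3 regions of 394, 697 and 230 bp lay within it and left the canonical start uncovered. The percentile of the strongest one in the window was 18.0, against 61.4 in siCONT cells. The siCONT summit, however, lay 1435 bp past the canonical start and outside the window. The siDLEU1 region over that summit, the one of 230 bp, stood at percentile 39.4. By that region the difference was −22.0 points. Summit coverage was 30.9 times the genome mean in siCONT cells (65 fragments) and 18.9 times in siDLEU1 cells (29 fragments), a ratio of 0.611 (0.380 to 0.961).

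MT1M (ENSG00000205364, 56666571 to 56667893, plus strand) kept both marks, but only upstream of its start. The H3K27ac region ran from 56665834 to 56666745 in siCONT cells, over the promoter and exon 1, and from 56666022 to 56666459 in siDLEU1 cells, which ends 112 bp before the start. The percentiles were 24.9 and 3.74. Summit coverage was 26.9 times the genome mean (40 fragments) and 17.7 times (34 fragments), a ratio of 0.660 (0.405 to 1.07), which holds the all-gene median. H3K4me3 covered 1174 bp in siCONT cells and 346 bp in siDLEU1 cells, where the region ended 34 bp before the start, and the percentiles were 59.2 and 23.0. Summit coverage of H3K4me3 was 29.4 times the genome mean (62 fragments) and 14.3 times (22 fragments), a ratio of 0.486 (0.285 to 0.802). Of the 100 bases before the start, 100 were under H3K27ac in siCONT cells and 0 in siDLEU1 cells, and 100 and 67 were under H3K4me3.

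MT1F (ENSG00000198417, 56691643 to 56694610, plus strand) was the only member to lose both marks from the lists. In siCONT cells a compact region of each mark lay over its promoter and exon 1, of H3K27ac from 56691635 to 56692035 and of H3K4me3 from 56691618 to 56692029. H3K27ac stood at percentile 44.6, the highest of the members for that mark, with 39.0 times the genome mean at the summit (58 fragments). H3K4me3 stood at percentile 67.8 with 28.0 times the genome mean (59 fragments). Each mark covered all of the 100 bases before the canonical start. In siDLEU1 cells no region of either mark was called anywhere in the 3504 bp of its window. The lowest summit coverage called in the siDLEU1 lists was 9.91 times the genome mean for H3K27ac and 9.11 times for H3K4me3, so a lower level of either mark could remain uncalled. Of the siCONT regions in the genome with at least the coverage of those at MT1F, 1.42% (H3K27ac) and 1.44% (H3K4me3) had no siDLEU1 region over them. These pools take in all stronger regions, so they do not give the share at the strength of MT1F itself.

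MT1X (ENSG00000187193, 56716382 to 56718108, plus strand), at the far end of the cluster, kept a region of each mark on both sides of its start. The downstream one lay over exon 1 and intron 1 and, for H3K4me3 in siCONT cells, also reached exon 2, and the stretch right before the start was uncovered. Of the 100 promoter bases printed above, 0 were under either mark in any list. H3K27ac covered 860 bp of the window in siCONT cells and 518 bp in siDLEU1 cells, and H3K4me3 1571 and 827 bp. The H3K4me3 percentile was 67.9 and 60.1, with a summit coverage of 35.6 (75 fragments) and 26.7 (41 fragments) times the genome mean, a ratio of 0.749 (0.499 to 1.11). The region over exon 1 had a ratio of 0.695 (0.449 to 1.06). Both intervals held 1, and both lay below the all-gene median of 1.25.

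MT1X was also the one member with a higher H3K27ac percentile in siDLEU1 cells, 20.0 against 9.29. The strongest region was the upstream one in siCONT cells (20.2 times the genome mean, 30 fragments) and the one over exon 1 in siDLEU1 cells (18.3 times, 35 fragments), so the percentiles compare different regions. For the region over exon 1 alone, summit coverage was 28.9 times the genome mean in siCONT cells (43 fragments) and 18.3 times in siDLEU1 cells, a ratio of 0.632 (0.392 to 1.01). The local background under it was 4.02 times the genome level in siCONT cells and 1.08 times in siDLEU1 cells, and the percentile moved from 6.50 to 20.0. This siCONT background has the same value as at MT2A, so it too rests on few control reads. Ranked by fragments at the summit instead, MT1X was lower by 14.9 points in siDLEU1 cells. The direction for H3K27ac at MT1X therefore depended on the measure used for ranking.

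The other 3 members had no region of either mark in any list. These were MT1A (ENSG00000205362, 56672578 to 56673999, plus strand), MT1G (ENSG00000125144, 56700642 to 56701977, minus strand) and MT1H (ENSG00000205358, 56703726 to 56705041, plus strand). They lie in between the marked members, MT1A after MT1M, and MT1G and MT1H between MT1F and MT1X. Among the 8 other metallothionein genes and pseudogenes of chromosome 16 (MT4, MT3, MT1L, MT1JP, MT1DP, MT1CP, MT1B and MT1IP), 0 had H3K27ac in either group. One, the pseudogene MT1DP, had a 293 bp H3K4me3 region in siCONT cells, at percentile 14.8 and with 14.7 times the genome mean, and none in siDLEU1 cells.

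Read placement is uncertain in a family of near copies, because the rule used for reads that fit several places is not given in the sources used here. Of the 32-base stretches in a member's window, the share found more than once in GRCh37 ranged from 1.41% in MT1X to 21.9% in MT1E. It was 17.6% in MT1M, 8.77% in MT2A and 5.18% in MT1F. In the unmarked members it was 4.31% (MT1A), 8.79% (MT1G) and 7.82% (MT1H), within the range of the marked ones. Its part in the results was not tested.

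**Figure D3:**
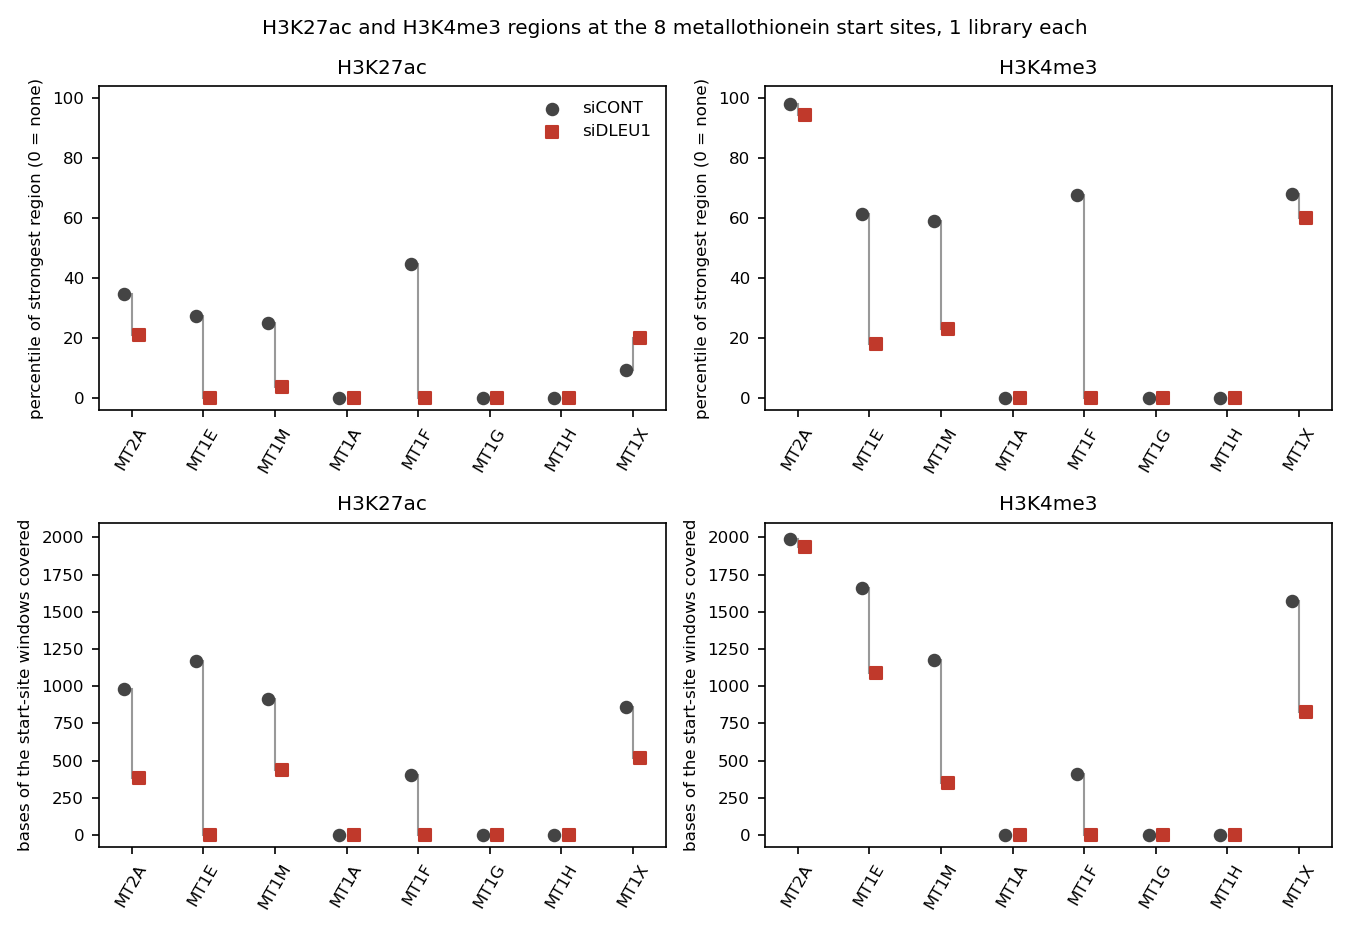
Top, percentile of the strongest region at each metallothionein gene within its list (0, no region) and bottom, bases of its window covered, for H3K27ac (left) and H3K4me3 (right). Grey circles are siCONT and red squares siDLEU1, 1 library each with no error bar. Covered length was lower in siDLEU1 cells at each of the 5 marked genes for both marks, whereas MT1X had a higher H3K27ac percentile.

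Counted over the members, the H3K27ac percentile was lower by at least 10 points in 4 of the 5 marked genes (MT2A, MT1E, MT1M and MT1F) and higher by as much in 1 (MT1X). Of all genes marked in either list, 36.8% were lower and 16.8% higher by that measure. The median difference was −21.2 points over the members and −4.55 over all marked genes. Among regions with a −log10 q of 10 or more, 2 of 4 members were lower, against 51.9% of all genes, and the medians were −8.88 and −11.2, so the members were then no lower than other genes. The H3K4me3 percentile was lower by at least 10 points in 3 of the 5 (MT1E, MT1M and MT1F) and higher in 0, against 18.6% and 20.2% of all marked genes. The median difference was −36.2 points over the members and 0.51 over all marked genes. At MT1E the percentiles compare different regions, and with 3 kb to either side the medians were −22.0 and 0.48. By the region over its start rather than the strongest one, MT2A differed by −55.1 points and MT1X by −12.5.

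The length of the marks differed in the same direction. H3K27ac covered at least 1.5-fold less of the window in 5 of the 5 marked genes, against 28.0% of all marked genes, and at least 1.5-fold more in 0, against 0.536%. In bases, the members' windows of 18052 bp held 4322 bp of H3K27ac in siCONT cells and 1337 bp in siDLEU1 cells, a ratio of 0.309, where the windows of all genes had a ratio of 0.766. H3K4me3 covered at least 1.5-fold less in 4 of the 5, against 12.4%, and more in 0, against 6.79%. The exception was MT2A, with 1990 and 1938 bp. The sum for H3K4me3 was 6807 and 4202 bp, a ratio of 0.617, against 0.926 over all genes. Loss of the call was also counted, and 2 of the 5 genes with H3K27ac in siCONT cells had none in siDLEU1 cells, against 5.61% of all such genes. For H3K4me3 it was 1 of 5, against 3.24%. These shares are over genes of any strength and were not matched to the members.

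Summit coverage at the members differed between the marks. For H3K27ac, 2 of the 3 members marked in both groups had a ratio of at least 1.5-fold lower (MT2A and MT1M), but so did 69.7% of all genes, and 0 were higher, against 0.0779%. The third, MT1X, stood at 0.905 (0.540 to 1.53), a ratio between different regions. By the region over exon 1 it was 0.632 (0.392 to 1.01), which passes 1.5-fold. With the strongest regions, the median ratio of the 3 members, 0.660, was near the 0.615 of all genes. MT2A alone had an interval that left out this value. For H3K4me3, 2 of the 4 members were lower by at least 1.5-fold (MT1E and MT1M), against 2.18% of all genes, and 0 were higher, against 22.5%. The median ratio was 0.680, where that of all genes was 1.25 with quartiles of 1.05 and 1.47. The other 2 members did not pass 1.5-fold, with MT1X at 0.749 (0.499 to 1.11) and MT2A, by its upstream region, at 1.11 (0.879 to 1.41).

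The same was seen region by region. Of the 7 H3K27ac regions of siCONT cells in the members' windows, 4 were overlapped by a siDLEU1 region, against 77.8% of all siCONT regions. All 4 had a ratio under 1, and 3 were at least 1.5-fold lower, against 66.5% of all overlapped regions. The interval held the median of all overlapped regions, 0.621, in 3 of the 4, the exception being MT2A. Of the 7 H3K4me3 regions, 6 were overlapped, against 76.4%. Of these 6, 3 were at least 1.5-fold lower (the downstream region of MT2A, MT1E and MT1M), against 4.85% of all overlapped regions. The siDLEU1 region of highest fold enrichment was taken here, which for the downstream region of MT2A is the one beyond the gene, with a ratio of 0.453 (0.313 to 0.644). In 5 of the 6 the whole interval lay below 1.22, the median of all overlapped regions, and the sixth was the upstream region of MT2A.

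**Figure D4:**
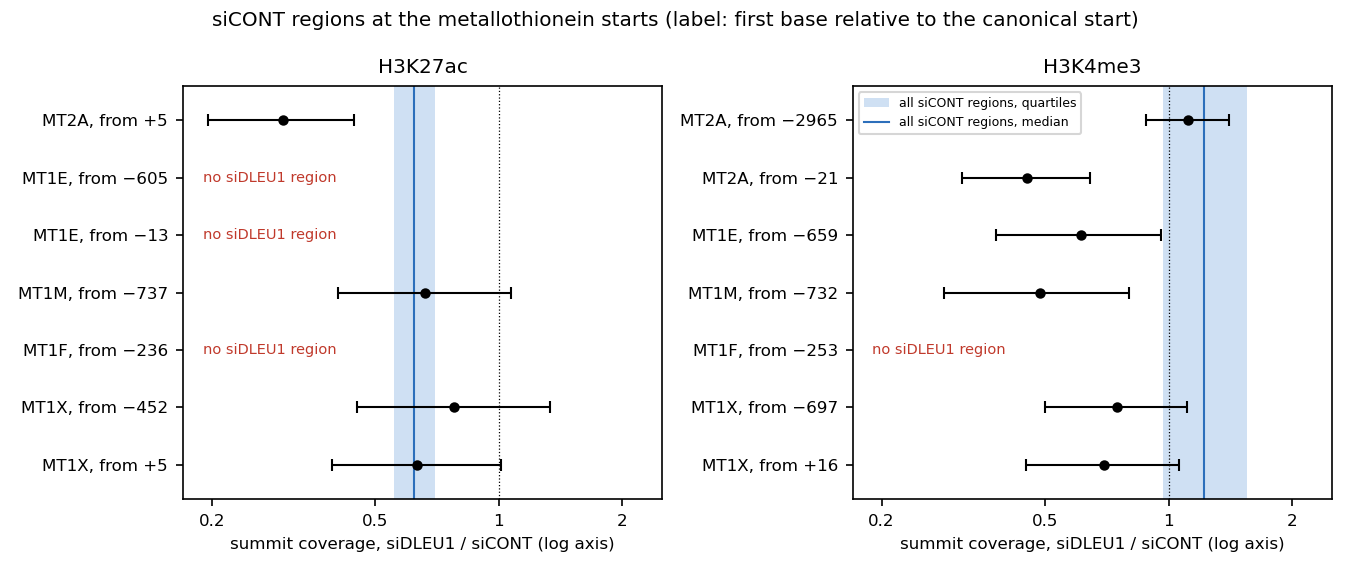
Ratio of summit coverage, siDLEU1 over siCONT, for each siCONT region in the windows of the metallothionein genes, with exact 95% counting intervals (bars) on a log axis. Labels give the gene and the first base of the region relative to the canonical start, the blue line and band are the median and quartiles of all overlapped siCONT regions, and the dotted line is 1. For H3K27ac the points other than MT2A fall near the band, whereas for H3K4me3 those other than the upstream region of MT2A fall to the left of it.

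The genes around the cluster were read in the same way. Within 250 kb of it, 7 genes of other families were examined (NUDT21, OGFOD1, BBS2, NUP93-DT, NUP93, SLC12A3 and HERPUD1), and 6 of them, all but SLC12A3, carried both marks in both groups. For H3K27ac, 1 was lower by at least 10 points (HERPUD1, an endoplasmic reticulum stress protein, 94.3 to 61.1), 1 was higher (BBS2, a protein of the primary cilium, 65.9 to 82.7) and 4 were neither, with a median difference of 4.26 points. For H3K4me3, 0 were lower and 2 were higher, with a median difference of 3.82 points. The shares of all marked genes were 36.8% lower and 16.8% higher for H3K27ac, and 18.6% and 20.2% for H3K4me3. The nearest marked gene on the MT2A side was BBS2, 88.6 kb away, with H3K4me3 percentiles of 81.8 and 76.3. The nearest on the MT1X side was NUP93-DT, 45.8 kb away, with 63.4 and 74.7. Next to it NUP93, a nuclear pore protein, had 76.8 and 96.9, and both stood at 69.0 and 78.5 for H3K27ac. Farther out, NUDT21, a factor of mRNA 3′ end processing, and OGFOD1 stood at 91.4 and 90.4 for H3K27ac and at 82.9 and 86.7 for H3K4me3. The H3K4me3 of HERPUD1 stood at 93.3 and 91.7. The median ratio of summit coverage over the 6 was 0.649 for H3K27ac and 1.35 for H3K4me3, against 0.660 and 0.680 over the metallothionein genes. In covered length, 3 of the 6 were at least 1.5-fold lower for H3K27ac, namely NUDT21 (2051 to 1134 bp), OGFOD1 (1990 to 1134 bp) and BBS2 (665 to 434 bp). For H3K4me3, 1 was, BBS2 (853 to 478 bp). Among all marked genes the shares were 28.0% (H3K27ac) and 12.4% (H3K4me3). NUDT21 and OGFOD1 share a region, as do NUP93-DT and NUP93 for H3K27ac, so these values are not independent.

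Genes that regulate or share the handling of metals were counted from a list of 38. Of the 31 with H3K27ac, 6 were lower by at least 10 points, 7 were higher and 18 were neither. Of the 32 with H3K4me3, 4 were lower, 8 were higher and 20 were neither. Of all marked genes, 36.8% were lower and 16.8% higher for H3K27ac, and 18.6% and 20.2% for H3K4me3. The median difference was 0.04 points for H3K27ac and 0.93 for H3K4me3. MTF1, the zinc-sensing activator of the metallothionein genes, stood at 83.5 and 91.9 for H3K27ac and at 68.5 and 76.5 for H3K4me3. SLC30A1, the plasma membrane zinc exporter and another target of MTF1, stood at 95.0 and 97.3 for H3K27ac and at 93.7 and 98.3 for H3K4me3. HMOX1, the inducible heme oxygenase of the oxidative stress response, stood at 1.73 and 20.0 for H3K27ac and at 40.1 and 45.0 for H3K4me3. None of these genes had a lower percentile in siDLEU1 cells for either mark. In covered length HMOX1 was lower for H3K4me3, with 557 and 266 bp, and the H3K27ac coverage ratio of MTF1 and SLC30A1, 0.625 and 0.661, was near that of all genes. That of HMOX1 was 1.62, and 0.0779% of all genes were at least 1.5-fold higher. Its siCONT region was among the weakest of its list, at percentile 1.73.

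Of the list, 4 genes differed by at least 10 points in both marks. The share of all genes that did so was not counted, so this count has no comparison. CCS, the copper chaperone of superoxide dismutase, was lower, from 62.1 to 17.3 for H3K27ac and from 84.3 to 63.9 for H3K4me3. The zinc transporters SLC30A7, SLC30A9 and SLC39A3 were higher. For H3K27ac they moved from 56.1 to 82.4, from 66.6 to 84.6 and from 35.3 to 61.5, in that order. For H3K4me3, SLC30A7 moved from 67.0 to 86.4, SLC30A9 from 49.4 to 74.7 and SLC39A3 from no region to 64.0.

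Other genes whose promoters are rich in the metal response element core were counted beside the members. Apart from the members, 491 genes held at least 3 matches in the 250 bases before the start. Of the 353 with H3K27ac, 31.4% were lower and 18.1% higher by at least 10 points, with a median difference of −3.00 points. Of the 343 with H3K4me3, 18.1% were lower and 19.8% higher, with a median difference of 0.31 points. These shares lie near those of all marked genes given above.

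The genes most like MT2A in the 4 percentiles, out of 12258 genes with a region in each list, were RGS12, MED12L and RRAS, at distances of 6.18, 6.38 and 7.25 points. RGS12 stood at 39.9 and 24.2 for H3K27ac and at 98.7 and 94.6 for H3K4me3. Since they were chosen by these percentiles, their strong H3K4me3 region and low-ranked H3K27ac region follow from the choice. For MT2A the H3K4me3 percentiles used were those of its upstream region. The region over its start stood at 94.2 and 39.1. No metallothionein gene was among the genes named.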

How the data were processed

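H3K27ac, H3K4me3 and input were sequenced for each siRNA, and the 2 inputs were not read directly here. The background in the lists came from a control that the sources used here do not name. Its recovered depth, under the assumed genome, was 7.18 M reads (siCONT) and 6.73 M (siDLEU1), equal for both marks. Fold enrichment and the percentiles therefore also depend on that control. Reads from an Ion Proton were mapped to hg19 by the authors with bowtie2, and peaks were called with MACS2 (settings not given in the sources used here). The deposited fold enrichment is a ratio of the signal at the summit to the local background. The deposited −log10 p and −log10 q are those of MACS2. The deposited score is a display value and was not used, and the deposited summit offset was used to place summits. No p-value was computed, since there is 1 library per siRNA and mark.

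Genes were 24135 GENCODE genes (19143 protein-coding, 4992 lncRNA) with a curated RefSeq transcript, on chromosomes 1 to 22 and X. A gene took the strongest region overlapping its window by 1 bp or more. Summit fragments and local background were solved from fold enrichment and p, which matched for 100% of the regions of each list. On 5906 simulated peaks, 100% of fragment numbers were recovered, and covered lengths were right in 100% of 300 simulated windows. A difference was counted from 10 percentile points, or 1.5-fold in covered length or summit coverage. Ratios have exact Clopper-Pearson 95% intervals.

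The genes named were the 8 members, the other metallothionein genes, genes within 250 kb, MTF1, SLC30A1, HMOX1 and the metal-handling genes past 10 points in both marks, and the 3 genes nearest to MT2A in the 4 percentiles. Some items that fall under this rule are not reported here. The members and lists were chosen with earlier results of these data known. The alternatives tried were a stricter −log10 q of 10 or more, windows of 3 kb and 500 bp, 1 start per gene, regions given to the nearest start, rank by −log10 p or by fragments, protein-coding genes only, and the region at the canonical start. Python 3.11.15, numpy 2.4.6, pandas 2.3.3, scipy 1.17.1, pysam 0.24.0 and matplotlib 3.10.9 were used.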

Additional observations from a re-analysis of the deposited data

How the results depend on the processing

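When regions needed a −log10 q of 10 or more, the members with H3K27ac numbered 4 in siCONT and 0 in siDLEU1 cells. Those with H3K4me3 numbered 5 and 2. The share of all genes with a region in each list was not counted at this threshold, so these counts have no comparison. The count of members lower in H3K27ac by at least 10 points was then 2 of 4 and the count higher 0, against 51.9% and 15.5% of all genes. The median differences were −8.88 points (H3K27ac) and −10.9 (H3K4me3), against −11.2 and 2.95 over all genes, so the lower H3K27ac percentile of the members relative to all genes was not seen at this threshold. With 3 kb to either side of the start, the median H3K4me3 difference was −22.0 points (0.48 over all genes), and with 500 bp, 2 members were at least 1.5-fold lower in covered H3K4me3, against 10.3% of all genes. Ranked by −log10 p or by fragments, 0 members were higher in H3K27ac by at least 10 points, where 12.5% and 5.11% of all genes were. By fragments MT1X was at −14.9 points, the reverse of its direction by fold enrichment. At the region over its canonical start, the H3K4me3 coverage ratio of MT2A was 0.411. Of the values for the counts, medians and ratios under the alternatives, 92 stayed near the main value and 11 moved. The protein-coding setting could not move a member's value, since all members are protein-coding and ranks are over regions. Near was also a wide class. It took in the H3K27ac ratio of MT1X, 0.905 and 0.632 at the canonical start. It also took in the count of members lower in H3K4me3, 3 and, ranked by −log10 p, 4. Of the percentile differences of single genes, 58 stayed near, 11 moved and 1 reversed. No paired analysis was possible because each group has 1 library, and leaving out a library was not possible for the same reason. The peak lists limit what can be seen at the unmarked genes, since levels under the threshold of the authors are not in them.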
